A study of Mus musculus with 3 samples.

Results

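In C2C12 cells arrested in G0, binding of PRDM2 was set against the histone mark H3K9me2 at the promoters of the autosomes. The comparison used 3 promoter arrays, 2 of chromatin precipitated with an antibody against PRDM2 and 1 with an antibody against H3K9me2. Besides control spots, the array design carried 237203 probes. On the autosomes lay 228196 of them, and 211579 of those had an input signal well above background on all 3 arrays. A promoter was the set of usable probes that shared a gene name, and it needed at least 3 of them. This gave 15341 promoters of the 15829 autosomal gene names, with a median of 14 probes each, and 488 names were left out for want of probes.

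C2C12 is a mouse myoblast line that stops dividing and enters G0 when it is kept in suspension, here in methylcellulose, and so serves as a culture model of the quiescent muscle stem cell. No group carried a genetic change or a further treatment, and all 3 arrays came from the same line in the same arrested state. Each array paired immunoprecipitated (IP) DNA in Cy5 with its input DNA in Cy3, and the dyes were not exchanged on any array. The labels number the PRDM2 arrays as replicates 1 and 2 without saying that the cultures were separate. Every p-value below thus measures only the spread between these arrays, taken mostly over all promoters together. The H3K9me2 chromatin was hybridised once, and the test assumes that this array would vary as the PRDM2 pair did. Control-antibody chromatin was not used here, so unspecific pull-down has no measured level of its own. RNA was not measured, so the labelled cell type could not be checked against its markers.

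PRDM2, also called RIZ, belongs to the PRDM family of zinc finger proteins, which carry a PR domain related to the SET domain of lysine methyltransferases. PRDM2 is one of the members reported to methylate histone H3 on lysine 9 itself. Dimethylation of that lysine, H3K9me2, is laid down mainly by Ehmt1 and Ehmt2 (GLP and G9a), is removed by demethylases such as Kdm1a and Kdm4b, and marks silent genes, often over broad domains. Comparing both profiles at the same promoters asks where the protein and the mark of its proposed reaction were found in the same place.

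The unit of the comparison was a rank. The log2 ratio of IP over input was ranked from 0 to 100 on each array among probes of like GC content, in bins of 2%, and the ranks of a promoter's probes were averaged. A rank of 50 is thus the middle of an array for probes of that composition, and a difference of 10 is 10 points on that scale. A few probes show what was ranked. They were chosen from promoters named further on, 2 with PRDM2 above H3K9me2, 2 with H3K9me2 above PRDM2, 3 that were high on all arrays and 1 that was low. In each case the matched probe nearest the start of the gene was taken. Letters are in lower case with each CG pair in capitals, since CpG content is a main difference between classes of promoter, and position and strand come from an exact match to the RefSeq promoter windows of GRCm38.p6. All are given on the forward strand.
Tnfsf10: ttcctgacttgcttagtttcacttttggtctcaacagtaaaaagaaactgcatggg
Bud13: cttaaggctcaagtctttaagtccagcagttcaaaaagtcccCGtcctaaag
Klra17: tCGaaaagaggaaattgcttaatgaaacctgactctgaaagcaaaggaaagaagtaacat
Olfr490: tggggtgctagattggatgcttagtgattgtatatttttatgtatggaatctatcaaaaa
Ctnnd1: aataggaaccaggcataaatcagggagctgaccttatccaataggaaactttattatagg
Pcgf2: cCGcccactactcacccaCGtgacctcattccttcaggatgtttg
Olfr77: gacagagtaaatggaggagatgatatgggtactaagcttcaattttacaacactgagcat
Cct5: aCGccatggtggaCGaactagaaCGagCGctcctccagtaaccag

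The Tnfsf10 probe lies at chr3:27317008-27317063 and ranked 79.8 and 44.0 on PRDM2 arrays 1 and 2 against 2.1 on the H3K9me2 array. The Bud13 probe, at chr9:46282893-46282944, ranked 45.9 and 96.4 against 29.9. The Klra17 probe at chr6:129876733-129876792 ranked 56.9 and 42.3 against 72.8, and the Olfr490 probe at chr7:108287255-108287314 ranked 10.1 and 49.5 against 84.1. In these 4 probes both PRDM2 arrays stood to one side of the mark, but the 2 PRDM2 values of a single probe lay far apart. Not every matched probe went with its promoter. That of Usf1, a promoter with PRDM2 above H3K9me2, ranked 90.1 and 72.8 against 90.6 and so went the other way. Those of Olfr813 and Csn1s2a, with H3K9me2 above PRDM2, went with their promoters. The Ctnnd1 probe at chr2:84650791-84650850 ranked 99.9, 91.1 and 97.0 in that order of arrays, and the Pcgf2 probe at chr11:97699764-97699808 ranked 94.9, 83.4 and 81.0. The Olfr77 probe at chr9:19917147-19917206 ranked 88.2 and 66.6 for PRDM2 and 99.7 for H3K9me2. The Cct5 probe at chr15:31601699-31601743, which holds 4 CG pairs, ranked 1.7, 1.2 and 0.8. The high probes thus included both a CpG-free and a CpG-bearing sequence, and the lowest one was the richest in CG pairs of those shown.

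PRDM2 and H3K9me2 ranked promoters alike to a moderate degree, and shared a large part of their extremes. Over the 15341 promoters the mean PRDM2 rank and the H3K9me2 rank had a Spearman rho of 0.603 and a Pearson r of 0.625. Of the 1535 promoters in the highest 10% of PRDM2, 691 (45.0%) were also in the highest 10% of H3K9me2, where 10% of all promoters lie. In the lowest 10% 695 (45.3%) were shared. Opposite extremes were rare, with 8 promoters in the highest 10% of PRDM2 and the lowest of H3K9me2, and 23 the other way round. In bulk chromatin, binding in fewer cells and weaker binding in each cell cannot be told apart, for the protein and the mark alike.

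The likeness between antibodies was about as large as that between the replicate PRDM2 arrays. PRDM2 array 1 had a rho of 0.574 with H3K9me2, above its 0.516 with PRDM2 array 2, while PRDM2 array 2 had 0.482 with H3K9me2. The highest 10% of promoters had 600 in common (39.1%) between the PRDM2 arrays, 657 (42.8%) between PRDM2 array 1 and H3K9me2, and 570 (37.1%) between PRDM2 array 2 and H3K9me2. These correlations describe promoters that share probes, input chromatin and base composition, and no p-value is attached to them. Input signal alone, ranked in the same way, had a rho of 0.781 between the PRDM2 arrays, and of 0.809 and 0.794 between PRDM2 arrays 1 and 2 and the H3K9me2 array. IP signal alone, without division by input, had a rho of 0.627 between the PRDM2 arrays and 0.540 and 0.567 with H3K9me2. On IP signal alone the replicate arrays were thus more alike than either was to the mark, the reverse of what array 1 showed for the ratio.

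The same likeness was seen within promoters. When the promoter's mean was taken away from each of its probes, the remaining deviations of 206023 probes had a rho of 0.567 between PRDM2 array 1 and H3K9me2, 0.466 between PRDM2 array 2 and H3K9me2, and 0.517 between the PRDM2 arrays. With ranks taken among probes alike in both GC content and input signal, the promoter rho between the antibodies was 0.555 and 0.451, and 0.503 between the PRDM2 arrays. The values were lower under a model-based background correction (normexp) in place of the deposited processed signals, where the rho of mean PRDM2 and H3K9me2 was 0.324 and 25.5% of the highest 10% was shared.

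**Figure D1:**
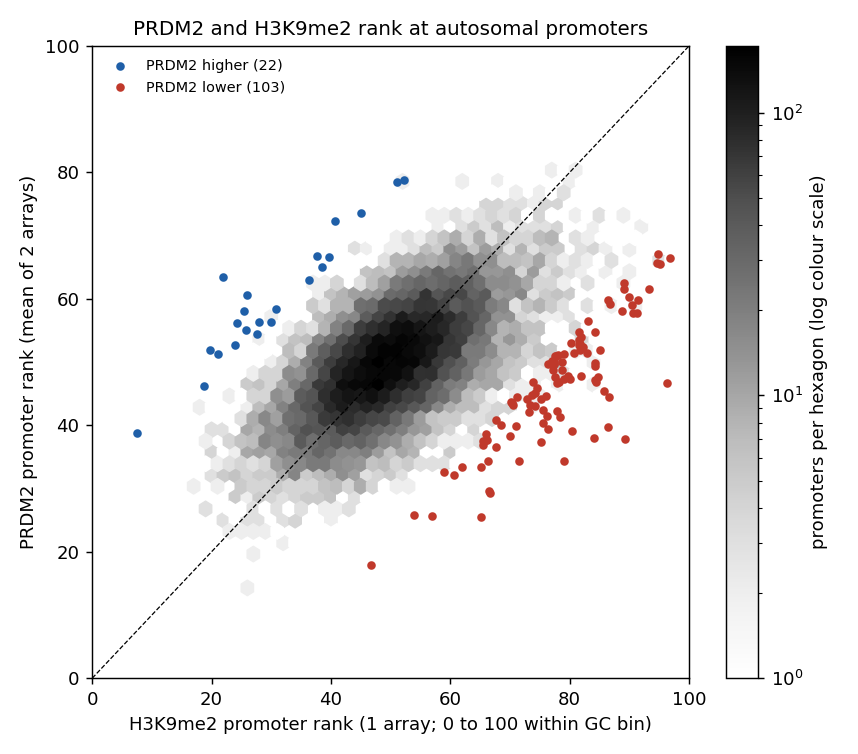
Promoter rank of PRDM2 (mean of 2 arrays, vertical axis) against H3K9me2 (1 array, horizontal axis) at 15341 autosomal promoters, with promoters per hexagon on a log colour scale and the dashed line of equal ranks. The cloud follows the line (rho 0.603), the 22 promoters called higher for PRDM2 lie above it and the 103 called lower lie below it, most of them at a high H3K9me2 rank.

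The difference between PRDM2 and H3K9me2 was tested at every promoter with limma and Benjamini-Hochberg adjustment. PRDM2 was called higher than H3K9me2 at 22 promoters (0.143%) and lower at 103 (0.671%), so that 82.4% of the calls were on the lower side. The difference was above 0 at 7719 promoters (50.3%). Both PRDM2 arrays lay above the H3K9me2 array at 5256 promoters (34.3%) and both lay below it at 5149 (33.6%), a near balance that ranks centred on 50 impose. The difference was within 10 points at 81.4% of promoters and beyond 20 points at 2.46%. The median standard error of a difference was 7.34 points. With 1 residual degree of freedom, limma drew it almost wholly from the spread of the PRDM2 pair over all promoters. It was 7.34 at Olfr490, where the PRDM2 SD was 0.39, and 7.63 at Smcr8, where the SD was 36.58. A standard error or p-value given for 1 promoter therefore says little of that promoter's own spread. The smallest difference called was 26.4 points on the higher side and 26.3 on the lower.

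The calls lay mostly at promoters with few probes, whose means vary more. Of the 652 promoters with 3 to 4 probes, 8 were called higher and 46 lower, and the SD of the difference was 14.4 points. Among the 6973 promoters with 15 or more probes none was called higher and 1 lower, and the SD was 6.07. No promoter was called when probe number entered limma as a weight, when ranks were taken within classes of GC content and input, with the median over probes, or with promoter means turned into percentiles, although 336 to 381 promoters on the higher side and 531 to 610 on the lower side had an unadjusted p under 0.05 in the first 3 of these. With percentiles those counts were 319 and 383. On the scale of log2 ratios less the median of the GC bin, where the median difference of all promoters was 0.31, 53 promoters were called higher and 131 lower (71.2% of the calls). The calls are therefore given as promoters that lead the comparison, beside their values on each array.

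At the promoters with PRDM2 furthest above H3K9me2, the mark was in the lower part of its array and PRDM2 near or above the middle. The rule for naming took the 10 largest differences each way among the calls of 5 or more probes. Plekha3, which encodes a phosphoinositide-binding protein of the Golgi, ranked 52.6 and 68.5 on PRDM2 arrays 1 and 2 and 25.9 on the H3K9me2 array, a difference of 34.62 ± 7.37 points (SE; adjusted p = 0.00218 by limma, 7 probes). The mean log2 ratios of these probes were 1.21 and 1.79 for PRDM2 and -1.77 for H3K9me2. These ratios are relative to the median usable probe of each array, before any account of GC content. Bud13, a splicing factor of the RES complex, ranked 47.7 and 68.5 against 25.5. In both genes the distance came from an H3K9me2 rank in the lower part of its array more than from a high PRDM2 rank.

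Mrpl27, a protein of the mitochondrial ribosome, ranked 50.1 and 53.7 for PRDM2 and 19.7 for H3K9me2, with 6 probes. Xpnpep3, a mitochondrial aminopeptidase, ranked 52.1 and 60.3 against 24.2. Pip5k3, now Pikfyve, the kinase that makes phosphatidylinositol 3,5-bisphosphate on endosomes, ranked 64.1 and 80.4 against 40.7. Of these, Pip5k3 alone had both PRDM2 arrays well above the middle rank. Usf1, a helix-loop-helix factor that binds E-boxes, ranked 52.4 and 57.8 against 25.8 over 10 probes (adjusted p = 0.018 by limma). Anapc11, the RING subunit of the anaphase-promoting complex, ranked 46.7 and 58.8 against 23.9. Tnfsf10, the death ligand TRAIL, ranked 57.5 and 59.4 against 30.7, and the proteasome subunit gene Psmb3 ranked 50.1 and 42.3 against 18.7. Smcr8, a partner of C9orf72 in autophagy, had PRDM2 ranks of 30.5 and 82.2 against 28.0, so that this call rested on PRDM2 array 2 alone. Over all 22 calls on this side the median rank was 57.3 and 62.7 on PRDM2 arrays 1 and 2 and 27.9 on the H3K9me2 array.

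Among the promoters with H3K9me2 furthest above PRDM2, chemosensory receptors were the most frequent. Klra17, a receptor of the Ly49 family of natural killer cells, ranked 36.9 and 52.1 for PRDM2 and 86.6 for H3K9me2, a difference of -42.12 ± 7.36 points (SE; adjusted p = 4.86e-05 by limma, 5 probes). Its log2 ratios, again relative to the median usable probe of each array, were 0.03 and 0.10 for PRDM2 and 1.89 for H3K9me2. Slamf6, another receptor of lymphocytes, ranked 25.2 and 33.5 against 66.6, and Csn1s2a, a casein of milk, ranked 53.1 and 46.8 against 84.2. The PRDM2 ranks were near or below the middle of the array in all 3.

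Of the 10 largest differences on this side, 7 were at receptors of smell or taste. Olfr813 ranked 52.5 and 38.3 for PRDM2 against 85.7, Olfr490 46.9 and 47.4 against 84.2, and Olfr835 45.2 and 39.3 against 77.9. Olfr1263 ranked 31.2 and 49.5 against 75.6, Olfr887 47.1 and 48.4 against 81.9, and Olfr924 55.6 and 59.8 against 91.3. The bitter taste receptor Tas2r123 ranked 41.8 and 41.1 against 76.2 over 9 probes. The H3K9me2 rank was above 75 at each of them, and PRDM2 ranked at or above 50 on at least 1 array at Olfr813 and Olfr924. Olfr835 and Olfr924 changed direction under normexp, to 8.33 and 3.31 points. Receptors of this kind belong to large families of similar genes, so the values of a single member are uncertain.

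**Figure D2:**
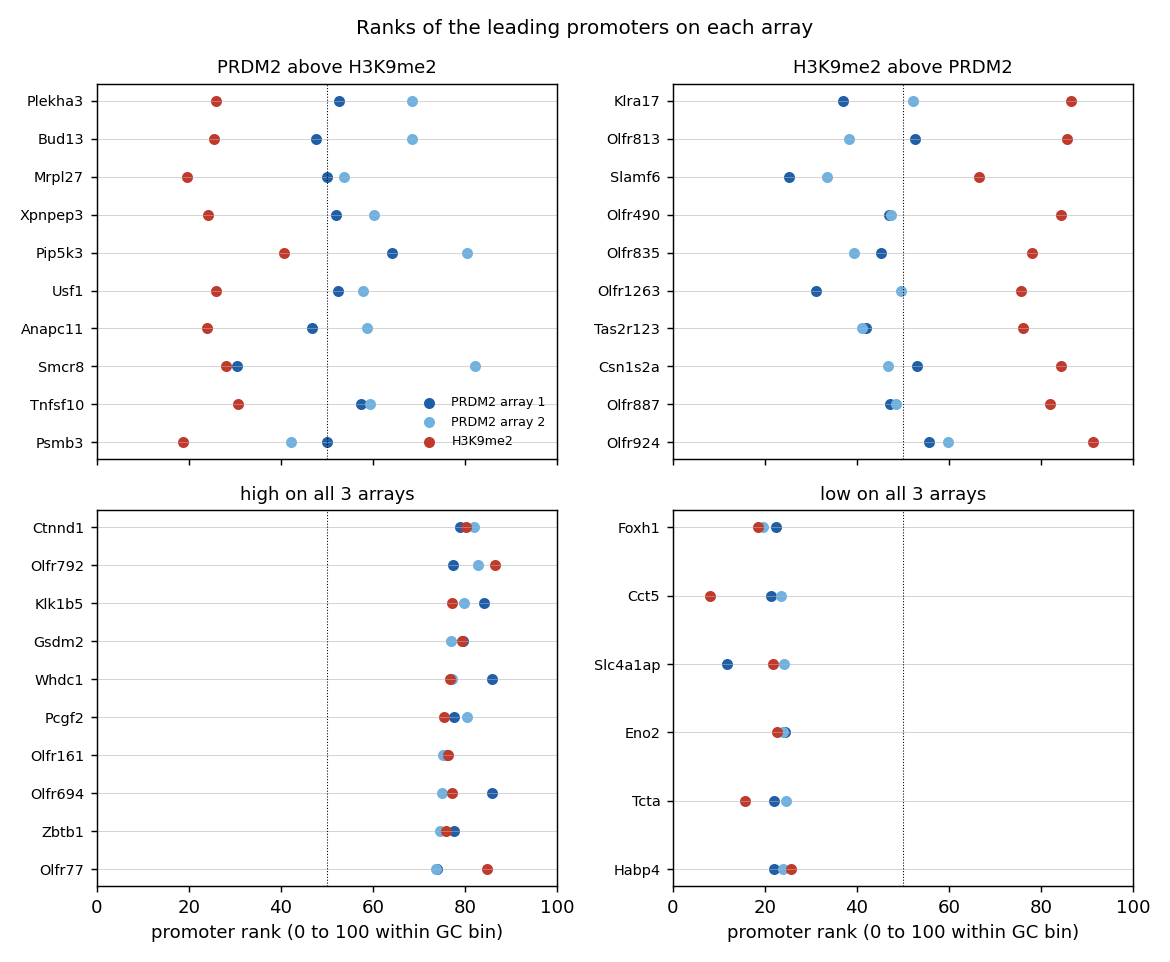
Promoter rank on each array (points, horizontal axis from 0 to 100; the dotted line is rank 50) for the 10 named promoters with PRDM2 furthest above H3K9me2, the 10 furthest below, the 10 highest on all 3 arrays and the 6 lowest. By the naming rule, H3K9me2 lies to the left of both PRDM2 arrays in the first panel and to the right in the second. Smcr8 shows PRDM2 ranks of 30.5 and 82.2. Only promoters of 5 or more probes were taken.

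Chemosensory receptors made up 58 of the 103 promoters called lower (56.3%) and 5.19% of all promoters. With these receptors left out of the fit, 8 promoters were called higher and 22 lower of 14545. Olfactory receptors, the G protein-coupled receptors of the nose, lie in clusters on most chromosomes, and their RNA was not measured here. Of 833 such names on the array, 666 had 3 usable probes on an autosome. Their median rank was 54.7 and 53.6 on PRDM2 arrays 1 and 2 and 62.8 on the H3K9me2 array. PRDM2 was called lower at 48 of them (7.21%, against 0.671% of all promoters) and higher at none. Both PRDM2 arrays lay below the H3K9me2 array at 431 (64.7%, against 33.6% of all promoters) and both lay above it at 79 (11.9%, against 34.3%).

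Vomeronasal, taste and trace amine receptors, the other chemosensory families, followed the same course. Their 130 promoters had median ranks of 53.8 and 53.3 for PRDM2 and 63.9 for H3K9me2. PRDM2 was called lower at 10 (7.69%, against 0.671% of all promoters) and higher at none, and both PRDM2 arrays lay below H3K9me2 at 88 (67.7%). Among the named members, V1rc3 (now Vmn1r11) ranked 60.7 and 59.1 against 91.4, and V1re6 (now Vmn1r227) ranked 69.2 and 49.0 against 90.5. PRDM2 was at or above the middle of the array at both, and H3K9me2 was near the top.

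Many receptors ranked high for PRDM2 too. Of the 666 olfactory receptor promoters, 191 (28.7%) were in the highest 10% of PRDM2, where 10% of all promoters lie, 334 (50.2%) in that of H3K9me2 and 148 in both. By rank of the ratio, both PRDM2 medians were above 50 and the H3K9me2 median was further above it.

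Several other measurements moved with this difference. The olfactory receptors had a median of 8 probes, 37.8% GC and an input rank of 42.0, where 50 is the middle. With ranks taken within classes of both GC content and input, their median difference was -7.58 points, as against -7.60 in the main ranks, but no promoter was then called. On IP signal alone their median rank was 49.3 for PRDM2 and 56.4 for H3K9me2. Among alternatives on the main rank scale, normexp gave the smallest median difference, -3.01 points, with 9 of the receptors called lower. Ranks without GC bins gave the largest, -10.66. Percentiles of promoter means gave -13.93 on a wider scale, which does not compare in size with the others. The part of probe number and base composition in the calls was not tested.

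The size of the difference varied between the clusters. Its median was -12.99 points for the 24 olfactory receptors on chromosome 16, -11.78 for the 30 on chromosome 17 and -11.24 for the 98 on chromosome 9. It was -11.16 for the 40 on chromosome 10 and -9.82 for the 92 on chromosome 2. On chromosome 7, which holds the most, it was -7.54 over 145 promoters, with median ranks of 53.5 and 51.7 for PRDM2 and 60.6 for H3K9me2. It was smaller on chromosome 11, at -2.85 over 65 promoters. The 26 olfactory receptors on chromosome 1 stood at 0.54 points, with ranks of 53.5 and 47.4 against 51.6. These clusters were not tested against each other.

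Around the start site, the mark and the protein stood apart upstream of the receptors and close together over a stretch within them. Start sites could be placed for 7181 promoters, through probes whose sequence matched a RefSeq promoter window of the same gene. Over the chemosensory receptors, probes 500 to 750 bp upstream had mean ranks of 55.5 and 54.7 on the PRDM2 arrays and 68.2 on the H3K9me2 array (291 probes). In the 250 bp before the start the values were 52.8 and 50.7 against 61.5, and in the 250 bp after it 50.9 and 51.3 against 53.8. From 250 to 500 bp inside the gene they were 47.6 and 50.6 against 49.0 (461 probes), a mean difference of 0.09 points. From 750 to 1000 bp inside the gene they stood apart again, at 52.2 and 55.3 against 57.0 (353 probes, a difference of -3.23 points), and from 1000 to 1250 bp the difference was -2.41 over 41 probes. The upstream differences ran from -8.04 to -13.08 points in all 10 bins between 2500 bp upstream and the start.

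At the other promoters the 3 arrays ran close together in all bins of at least 200 probes. The mean difference lay at -1.54 points from 2500 to 2250 bp upstream, 1.08 in the 250 bp before the start and 0.14 in the 250 bp after it. Further upstream, in sparser bins, it was -6.23 from 2750 to 2500 bp (78 probes) and 1.47 from 3000 to 2750 bp (32 probes). PRDM2 array 1 went from 52.8 far upstream to 47.3 just before the start, the H3K9me2 array from 53.7 to 47.4 and PRDM2 array 2 from 51.4 to 49.5. Protein and mark were both lower next to the start than 2 kb away. Median probe GC went from 40.0% to 47.8% over the same distance, and ranks were taken within GC bins.

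**Figure D3:**
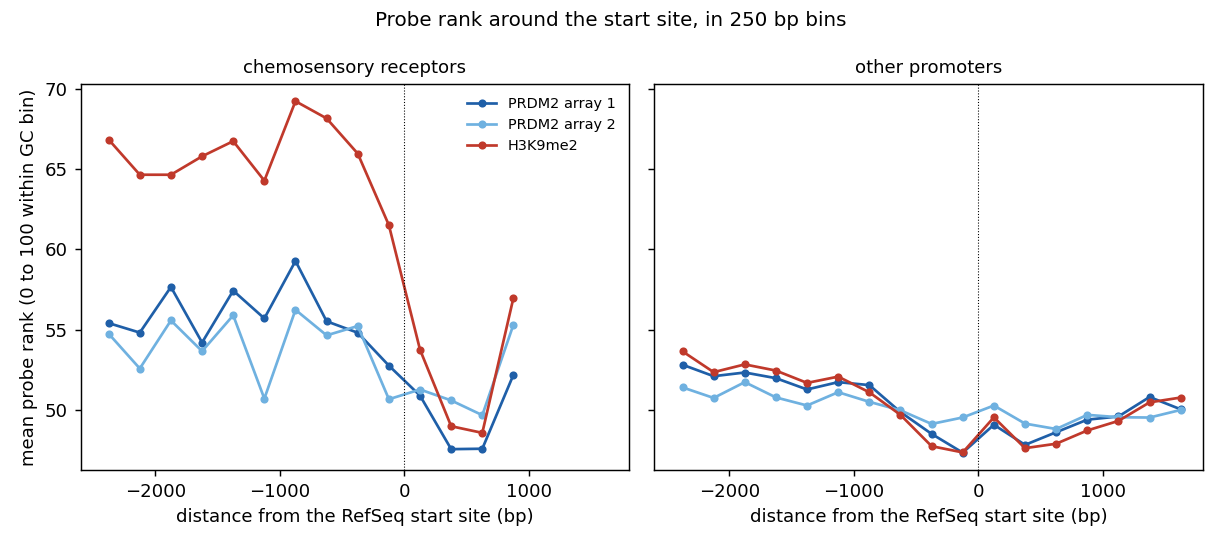
Mean probe rank on each array (vertical axis) by distance from the RefSeq start site in bp (horizontal axis, bins of 250 bp with at least 200 probes; negative is upstream) for chemosensory receptors on the left and all other promoters on the right. Upstream of the receptors PRDM2 minus H3K9me2 runs from -8.04 to -13.08 points, and from 250 to 750 bp inside the gene the 3 lines lie close together before H3K9me2 stands above PRDM2 again at 750 to 1000 bp. At other promoters they run close together throughout.

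At some promoters the protein and the mark were both near the top of their arrays. By the lowest of the 3 ranks, the highest promoter was Ctnnd1, which encodes p120 catenin of adherens junctions, with 78.8 and 82.1 for PRDM2 and 80.2 for H3K9me2 over 9 probes. Pcgf2, a subunit of Polycomb repressive complex 1, ranked 77.6, 80.3 and 75.5 in the same order. Zbtb1, a zinc finger repressor, ranked 77.6, 74.6 and 75.8, and Whdc1 (now Whamm), an actin nucleation factor, ranked 85.8, 77.1 and 76.7. The 4 differ in composition, from 38.6% GC at Ctnnd1 to 54.2% at Pcgf2.

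The other 6 were a kallikrein, a gasdermin and 4 olfactory receptors. Klk1b5 ranked 84.0 and 79.8 for PRDM2 and 77.1 for H3K9me2, and Gsdm2 (now Gsdma2) ranked 79.6, 77.0 and 79.3. Olfr792 ranked 77.3 and 82.8 against 86.4, and Olfr161 ranked 76.1, 75.3 and 76.3. Olfr694 ranked 85.8, 75.0 and 77.1. In all 10 the difference between antibodies was smaller than the limma test could call, the largest being -11.05 ± 7.34 points (SE) at Olfr77 (adjusted p = 0.895).

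The promoters that were low on all 3 arrays included Foxh1, a partner of SMAD proteins in nodal signalling, with 22.4 and 19.5 for PRDM2 and 18.4 for H3K9me2. Cct5, a subunit of the cytosolic chaperonin, ranked 21.4, 23.5 and 8.2. Eno2, the neuronal enolase, ranked 24.5, 23.9 and 22.6. Slc4a1ap ranked 11.7, 24.2 and 21.8, Tcta 21.9, 24.6 and 15.7, and Habp4 21.9, 23.9 and 25.6. At Cct5 the H3K9me2 rank was lower than both PRDM2 ranks, and at Slc4a1ap it lay between them.

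Genes that act on H3K9 held no call, where 0.815% of all promoters were called. The lists of methyltransferases, demethylases and readers held 6, 10 and 21 promoters, with medians of 13, 9 and 14 probes. Of all promoters with 10 to 14 probes 0.123% were called, and of those with 5 to 9 probes 1.79%. In lists so small the lack of calls says little. The 6 H3K9 methyltransferase genes measured had median ranks of 61.4 and 56.7 for PRDM2 and 53.9 for H3K9me2, and 3 of the 6 were in the highest 10% of PRDM2. Ehmt1, which encodes GLP, ranked 66.2 and 61.2 for PRDM2 and 50.1 for H3K9me2, with both PRDM2 arrays above the mark (difference 13.54 ± 7.34 points, SE; adjusted p = 0.743 by limma). Ehmt2, which encodes G9a, ranked 61.1, 60.4 and 57.6. Setdb1, the methyltransferase that works with KAP1, ranked 63.1, 48.2 and 70.3 over only 3 probes, Setdb2 35.7, 45.1 and 38.8, and Suv39h2 54.3, 52.9 and 45.6. The promoters of both subunits of the main H3K9me2 writer therefore lay above rank 60 on both PRDM2 arrays.

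Among the 10 H3K9 demethylase genes none was called. Jmjd2b (now Kdm4b) ranked 57.6 and 58.5 for PRDM2 against 42.2 for H3K9me2, and Aof2 (now Kdm1a) ranked 52.8 and 53.3 against 38.8. The largest difference of the list was at Hspbap1, placed on the list for its JmjC domain, with 32.4 and 39.6 against 61.6 (adjusted p = 0.0581 by limma). None of the 21 readers and partners was called. Mbd3 of the NuRD complex ranked 52.8 and 57.9 against 40.3, Cbx1, a heterochromatin protein, 38.0 and 41.8 against 29.9, and L3mbtl2 39.5 and 30.1 against 48.4.

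The PRDM family was measured at 6 promoters, and Prdm2 itself had no probe under that name. Prdm16, a determinant of brown fat that is also listed as an H3K9 methyltransferase, ranked 61.6 and 63.2 for PRDM2 and 61.9 for H3K9me2 over 22 probes. Prdm8 ranked 63.0, 61.4 and 68.9 over 23 probes. At Prdm1 (Blimp1) the ranks were 47.5, 56.1 and 47.4, at Prdm4 54.2, 50.9 and 61.9, and at Prdm6 55.3, 52.4 and 57.4. No member of the family was called, where 0.815% of all promoters were. Prdm8 and Prdm16 were in the upper part of all 3 arrays.

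None of 4 genes of the myoblast's cycle and fate was called, where 0.815% of all promoters were. Ccna2, the cyclin of S phase, ranked 45.0 and 44.5 for PRDM2 and 40.3 for H3K9me2. Myog, the factor that starts muscle differentiation, ranked 50.2 and 64.8 against 47.3 over 18 probes, and Myod1, the factor that fixes myoblast identity, ranked 45.8 and 53.4 against 49.2. Id3, an inhibitor of such factors, ranked 51.7 and 59.2 against 51.4. PRDM2 array 2 was above PRDM2 array 1 at Myog, Myod1 and Id3, and the H3K9me2 rank of Myod1 lay between them. The highest of these values, 64.8, was on that array alone.

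The lists of muscle and growth genes held no call, where 0.815% of all promoters were called. The myogenic, muscle structure and satellite cell lists had medians of 19.5, 16 and 17.5 probes. Of all promoters with 15 or more probes 0.0143% were called, and of those with 10 to 14 probes 0.123%. The 32 myogenic regulators had median ranks of 51.2 and 53.9 for PRDM2 and 47.8 for H3K9me2, with both PRDM2 arrays above the mark at 15 (46.9%, against 34.3% of all) and below it at 6 (18.8%, against 33.6%). Myf6 ranked 56.1 and 38.7 against 62.8. A promoter named Tcf3 on the array, on chromosome 6, ranked 49.5 and 43.3 against 36.2. Whether that name stands for E2A was not checked. Genes of muscle structure (49) had a median difference of 1.72 points, and those of quiescent satellite cells (30) 1.44, which were 0.39 and 0.22 without PRDM2 array 2. Calcr, the calcitonin receptor of quiescent satellite cells, ranked 47.6 and 56.1 against 64.1.

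Cell cycle genes did not share a direction. Cyclins and CDKs (21) had a median difference of -3.51 points, with Cdk4 at 22.2 and 34.0 for PRDM2 against 44.4, Ccnh at 38.9 and 42.4 against 53.5 and Ccnb1 at 53.5 and 57.3 against 43.6. Under ranks without GC bins the median of this list turned to 1.61, and without PRDM2 array 2 it was -1.06. CDK inhibitors and antiproliferative genes (22) had a median difference of 4.66 points, with both PRDM2 arrays above the mark at 12 (54.5%, against 34.3% of all). Without PRDM2 array 2 that median was 1.71, and with normexp 1.66. Btg1, an antiproliferative gene, ranked 52.0 and 63.6 against 45.9, whereas Cdkn1c (p57) ranked 45.1 and 46.2 against 56.2. The E2F and RB family (17) stood at 2.12 points, with E2f6 at 62.5 and 56.0 against 45.9 and Rb1 at 40.0 and 44.5 against 52.2. Without PRDM2 array 2 the median of that family was -1.04.

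Hox genes had the largest positive median difference of the 35 lists in the main ranks. Without PRDM2 array 1 it was 5.16 points, below the CDK inhibitors (6.91) and the immediate early genes (5.41). The 32 Hox promoters, which encode the factors of body axis patterning, had median ranks of 51.0 and 53.9 for PRDM2 and 48.0 for H3K9me2, and a median difference of 5.11 points against 0.07 over all promoters. Both PRDM2 arrays lay above the mark at 21 (65.6%, against 34.3% of all) and below it at 3. Hoxc5 ranked 63.4 and 59.5 against 46.6, Hoxa10 50.8 and 55.6 against 42.0, and Hoxb1 51.2 and 58.2 against 43.7. No Hox promoter was called, where 0.815% of all promoters were. The median difference of the list kept its sign in all 19 alternatives, from 3.95 to 18.85 points. That range includes percentiles of promoter means, which are on a wider scale than the main ranks. Neighbouring Hox genes share clusters, and some probes of one lie next to those of another, so the 32 are not independent.

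Immediate early genes (28), which respond first to growth factors, had a median difference of 4.65 points, with PRDM2 medians of 45.2 and 51.9 and an H3K9me2 median of 46.6. Without PRDM2 array 2 the difference was 1.11, so that much of it lay on that array. Cyr61 (now Ccn1) ranked 43.2 and 55.3 against 37.5, Klf4 53.4 and 54.6 against 43.2, and Fosl2 37.3 and 52.0 against 35.0. The 146 developmental homeobox, forkhead and T-box genes had a median difference of 1.73. Among them Zic2 ranked 68.0 and 64.4 against 44.1 (difference 22.12 ± 7.34 points, SE; adjusted p = 0.163 by limma), Sox5 51.7 and 65.4 against 40.8 and Tbx3 46.8 and 66.8 against 39.5. None of these was called.

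**Figure D4:**
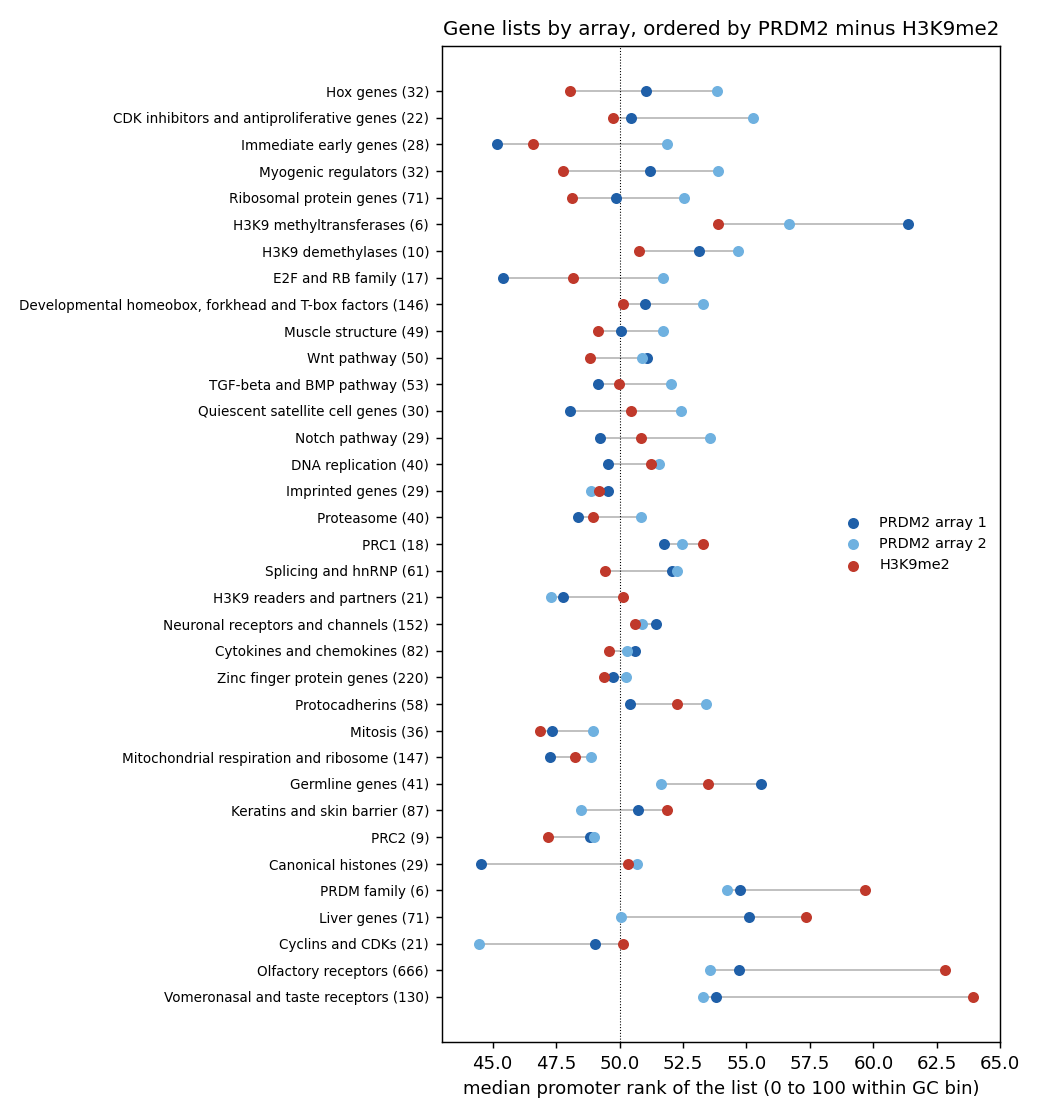
Median promoter rank of each of the 35 gene lists on each array (points; horizontal axis in rank, dotted line at 50), ordered by PRDM2 minus H3K9me2 with the number of promoters in brackets. Chemosensory receptors stand apart at the bottom with H3K9me2 medians of 62.8 and 63.9, and Hox genes stand at the top with PRDM2 medians of 51.0 and 53.9 and an H3K9me2 median of 48.0.

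Few members were called in the other lists. Of 71 liver genes 4 were called lower (5.63%, against 0.671% of all), with list medians of 55.1 and 50.1 for PRDM2 and 57.3 for H3K9me2. Cyp2b19 was called, at 49.6 and 49.9 against 77.4 over 8 probes, and Cyp3a13 was not, at 43.3 and 43.7 against 67.3. Of 87 keratin and skin barrier genes 1 was called lower (1.15%, against 0.671% of all). It was Lce1c, a late cornified envelope gene, at 51.4 and 42.4 against 73.9. Its neighbours Lce1l and Lce1d ranked 41.2 and 33.9 against 61.8 and 53.1 and 46.1 against 72.1. All 3 Lce1 promoters had both PRDM2 arrays below the mark.

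Of 147 genes of mitochondrial respiration and ribosomes, Mrpl27 was called higher and Mrpl46 lower, shares of 0.68% each beside 0.143% and 0.671% of all promoters, the latter at 45.0 and 28.2 against 67.7. In the proteasome list 1 of 40, Psmb3, was called higher, where 0.143% of all promoters were, and Psmb6 ranked 55.9 and 54.2 against 34.6. Ribosomal protein genes (71) had a median difference of 2.49 points with both PRDM2 arrays above the mark at 33 (46.5%, against 34.3% of all). Rps26 ranked 64.1 and 49.6 against 38.4 and Rpl4 59.2 and 56.8 against 41.2, while Rps27a ranked 46.0 and 43.2 against 58.5. Of 220 zinc finger genes 1 was called higher, where 0.143% of all promoters were. Zfp105 and Zfp606 were not called, at 47.9 and 35.3 against 67.5 and 65.1 and 46.9 against 78.3.

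Polycomb lists had median differences near 0, though Pcgf2, named above, and Bmi1 ranked high. The PRC1 list (18) had a median difference of 0.85 points and the PRC2 list (9) -1.30, which turned to 8.46 under normexp. Bmi1 ranked 68.3 and 68.7 for PRDM2 against 57.5, Ring1 52.1 and 48.0 against 56.2, and Ezh2, the H3K27 methyltransferase, 53.7 and 49.0 against 60.5. The 29 canonical histone genes had a median difference of -1.50, which was 1.16 without PRDM2 array 1, -3.93 without array 2 and 2.61 with normexp, with Hist1h4c at 54.0 and 60.0 against 76.1 and Hist1h3g at 35.6 and 57.7 against 30.1. Protocadherins (58), which lie in tandem clusters, had a median difference of -0.23 (3.10 without PRDM2 array 1), and Pcdhb12 ranked 32.0 and 35.6 against 57.0. No member of these lists was called, where 0.815% of all promoters were.

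The remaining lists also held no call, where 0.815% of all promoters were called, and had median differences near 0. DNA replication genes (40) had a median difference of 1.13 points and mitosis genes (36) -0.52. Cenpe, a kinetochore motor, ranked 35.1 and 56.7 against 63.5. Germline genes (41) stood at -1.06 with Dazl, an RNA-binding protein of germ cells, at 49.7 and 41.3 against 60.8, and imprinted genes (29) at 1.12 with Igf2r at 44.4 and 39.3 against 52.5. Cytokines and chemokines (82) had a median difference of 0.28 points, although the clustered interferon genes Ifna1 and Ifna13 ranked 69.9 and 66.7 against 86.4 and 45.7 and 57.0 against 74.2. Splicing genes (61) stood at 0.70 with Sf3b4 at 38.3 and 31.5 against 20.1, and neuronal receptors and channels (152) at 0.43 with the glutamate receptor Grik2 at 48.9 and 58.9 against 38.4. Leaving out a PRDM2 array turned several of these medians. Without array 1, mitosis stood at 1.20 and neuronal receptors at -0.46. Without array 2, DNA replication stood at -0.29, germline genes at 0.46 and imprinted genes at -1.10.

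Signalling pathways also held no call, where 0.815% of all promoters were called. The Wnt list (50) had a median difference of 1.47 points, and its receptor genes Fzd1, Fzd6 and Fzd7 had both PRDM2 arrays above the mark, with 52.6 and 56.7 against 42.0 at Fzd1. The TGF-beta and BMP list (53) stood at 1.46 and the Notch list (29) at 1.21, and these were 0.23 and -0.29 without PRDM2 array 2. Smad2 ranked 54.0 and 49.4 against 38.6, the BMP inhibitor Nog 60.1 and 55.0 against 46.8, and the Notch target Hey1 58.4 and 63.1 against 50.9. Bmp5 ranked 34.7 and 54.8 against 58.6, so its PRDM2 arrays differed by more than the antibodies did at most promoters.

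The difference varied with base composition and input. The promoters were split by GC content into 5 classes of equal size. In the class lowest in GC (median 38.6%), the medians were 52.0 and 51.4 for PRDM2 and 55.1 for H3K9me2, and 82 of the 103 lower calls lay there. Without chemosensory receptors the median difference of that class was -1.69 points rather than -3.25. In the other 4 classes it lay between 0.31 and 0.82. The rho between antibodies went from 0.534 in the lowest class to 0.631 in the highest. With 5 classes by input rank, the median difference went from -1.97 points in the lowest to 1.61 in the highest, with 69 lower calls in the lowest. H3K9me2 varied more with input (rho -0.235) than PRDM2 array 1 (-0.099) or array 2 (-0.155) did.

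**Figure D5:**
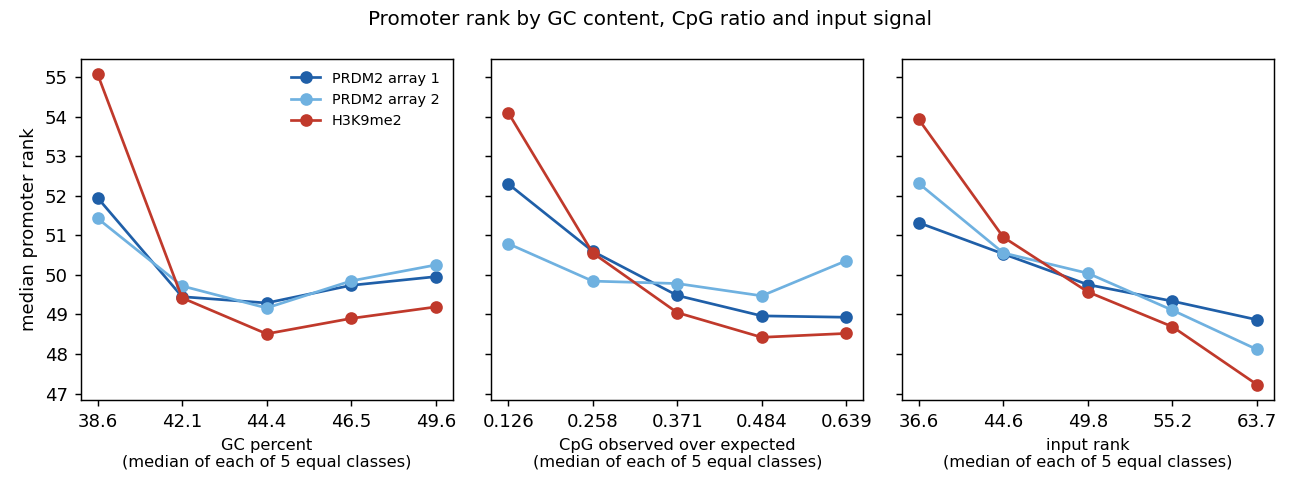
Median promoter rank on each array (vertical axis) in 5 equal classes of the 15341 promoters by GC percent, by CpG observed over expected and by input rank (horizontal axes, labelled with the median of each class). H3K9me2 spans the widest range in each panel, and it lies above both PRDM2 arrays in the class lowest in GC, with 55.1 against 52.0 and 51.4.

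Chromosome 15 stood apart from the other autosomes. Its 610 promoters had a median input rank of 66.0, while the other 18 autosomes lay between 46.8 and 51.6. The PRDM2 medians there were 46.2 and 44.2 and the H3K9me2 median 42.2, a difference of 2.69 points. All 3 arrays were thus lower where the input was brighter, and the mark was lowest. With chromosome 15 left out, the counts of calls were 20 higher and 102 lower.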

How the data were processed

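Chromatin of G0-arrested C2C12 cells was measured on 3 Agilent 2-colour promoter arrays. Per the file headers, background subtraction and dye normalization had turned scanner signals into processed intensities (ChIP settings of Agilent Feature Extraction, version 10.5.1.1). The raw mean and background intensities in the deposited files were used for the normexp alternative alone. The deposited log10 ratios of red over green signal served as a check of the processed intensities. The deposited spot flags of control, background, saturation and outlier, per the file headers, were used as filters. The authors' value table was taken as log2 of IP over input, from its correlation with the scanner ratios of 0.965, 0.940 and 0.972, and served as an alternative. No source used here names the build of the array coordinates.

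The log2 ratios of processed intensities were ranked within GC bins of 2%, averaged over at least 3 probes of a gene name, and compared with limma 3.58.1 in R 4.3.3 (lmFit and eBayes on 3 arrays) at a Benjamini-Hochberg adjusted p under 0.05. The procedure was tested on simulated data. Over negative-control spots, the median IP signal stood 1.47 and 1.39 times as high on the PRDM2 arrays and 6.44 times on the H3K9me2 array, and having only 3 arrays bounds the precision. Probes with IP well above background made up 75.7%, 71.1% and 78.9%.

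Probes were matched exactly to RefSeq promoter windows, from 250 bases before to 50 after the start, and 12383 promoter names were current symbols, 2628 synonyms and 330 unmatched. The names reported were the 10 largest differences each way among calls, and the 10 highest and 6 lowest promoters on all 3 arrays. These were taken from promoters of 5 or more probes. Ccna2, Myog, Myod1 and Id3, the H3K9 methyltransferases and the PRDM family were added. So were up to 3 members of each other list, by size of the difference. Predicted genes were passed over. Some promoters that the rule named are not reported here. The members and the 35 lists were chosen with earlier results of these data known. Alternatives covered background correction, GC bins, filters, probe number, averaging and the value table.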

Additional observations from a re-analysis of the deposited data

How the results depend on the processing

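The counts of calls and the likeness of the 2 profiles depended on the processing, and the causes were not tested. Promoters called higher and lower numbered 22 and 103. They were 12 and 37 with normexp (8 of these promoters were also called in the main ranks), 9 and 56 with GC bins of 1%, 1 and 1 with IP signal also well above background, 8 and 37 with at least 5 probes, 2 and 13 with at least 8, 6 and 52 with the deposited value table, 53 higher on the log2 scale, 12 higher with outlier and saturated spots left out, 229 lower without GC bins, and 8 and 22 without chemosensory receptors. No promoter was called in either direction (0 and 0) with classes of GC and input, the median over probes, promoter percentiles or weights by probe number, with smallest adjusted p-values by limma of 0.0767, 0.0605, 0.913 and 0.167. The counts stayed within 1.5 times of the main ones with GC bins of 5%, no filter on dim input, names split at 10000 bp, an eBayes trend, chromosome 15 left out and bins of under 200 probes left out. The rho of 0.603 was 0.324 with normexp and 0.498 with the median over probes. The shared highest 10% of 45.0% was 25.5% with normexp, 40.9% without the filter on dim input, 37.9% with the median and 34.7% on the log2 scale. Leaving out 1 PRDM2 array at a time gave a rho of 0.482 to 0.574 and a share of 37.1% to 42.8%, with no test. Olfr835 and Olfr924 reversed under normexp, to 8.33 and 3.31 points. The median of the olfactory receptors stayed below 0 in every alternative run. On the main rank scale it went from -10.66 points without GC bins to -3.01 with normexp. Percentiles of promoter means, on a wider scale, gave -13.93. The alternatives with probe weights, bins of under 200 probes, chromosome 15 and the receptors left out were chosen after seeing the data. No paired analysis was possible because the labels give the H3K9me2 array no replicate number.

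Dim signal is a limit of these data, with a median IP signal on the PRDM2 arrays of 1.47 and 1.39 times that of negative controls. PRDM2 array 1 also ranked promoters more like the H3K9me2 array than like its replicate. With only probes whose IP signal was also well above background, the rho of mean PRDM2 and H3K9me2 was 0.652, against 0.603 in the main ranks. The part of dim signal in the likeness of the arrays was not tested. The H3K9me2 side of every difference rests on 1 array.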

Other observations

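Several other gene families of tandem clusters, chosen after their values were seen and therefore described without a test, had H3K9me2 above PRDM2. The 18 promoters of the prolactin family, hormones of the pituitary and placenta, had median ranks of 53.3 and 49.5 for PRDM2 and 67.5 for H3K9me2, and both PRDM2 arrays lay below the mark at 15 of them. The 7 Ugt2 glucuronosyltransferases had medians of 58.7 and 59.4 against 73.4, over a median of only 4 probes. Of them 2 were called lower, where 0.671% of all promoters were. The 14 Klr receptors of natural killer cells had medians of 54.8 and 52.8 against 60.4, and the 14 genes of the Ms4a family 53.2 and 51.8 against 62.2. The 14 caseins had medians of 52.1 and 48.3 against 53.4 and a median difference of -1.92 points. Of these caseins 2 were called lower, where 0.671% of all promoters were, and both PRDM2 arrays lay below the mark at 6. The 21 kallikreins, by contrast, had medians of 56.9 and 50.5 against 50.1, and in the 42 serpins H3K9me2 lay between the PRDM2 arrays, with 53.2 and 50.7 against 52.3. The prolactin and Ugt2 promoters also had low input ranks, 35.4 and 28.3, and the kallikreins a high one, 59.2; the part of input in these differences was not tested.

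Neighbouring promoters resembled each other weakly. For 2890 pairs 5000 to 20000 bp apart the rho between neighbours was 0.167 on the H3K9me2 array and 0.062 and 0.040 on PRDM2 arrays 1 and 2, given as a description. Without chemosensory receptors the H3K9me2 value was 0.065 over 2616 pairs, and the PRDM2 values were 0.042 and 0.034. Pairs of neighbours also shared input rank (rho 0.249) and GC content (0.451).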
